A study of Mus musculus with 8 samples.

Results

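The 9 transcripts described here encode surface proteins by which an activated or costimulated T cell is recognized: Cd69, Cd44, Cd28, Icos, Cd5, Cd6, Cd2, Tfrc and Ly6c1. They were chosen by gene symbol, with earlier results of these data known, and 9 of 9 were found among the 23366 symbols of the count table. Messenger RNA was measured in CD4+ T cells of C57BL/6 mice in 4 groups of 2 libraries. Th17 cultures with PAM3CSK4 (replicates 3 and 4), Th17 cultures with biglycan (replicates 7 and 8) and Th17 cultures without a ligand (replicates 1 and 2) were started from sorted naive cells. All 3 kinds of culture were stimulated with antibodies to CD3e and CD28, and were polarized with TGF-beta and IL-6 for 3 days. Naive CD4+ T cells (replicates 1 and 2) from spleen and lymph node had no treatment. PAM3CSK4, a synthetic lipopeptide that activates TLR2, was used at 2 ug/ml; whether this dose also holds for biglycan, a matrix proteoglycan that can act on the same receptor, is not clear from the series text. The Th17 cultures differ from the naive cells in activation, cytokines and time in culture together, which cannot be told apart. No label gives the mouse or well of a library; the spread behind each p-value is that between libraries and may be technical.

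A T cell receives a signal through its antigen receptor and a further, costimulatory signal through CD28, which binds CD80 and CD86 on antigen-presenting cells. ICOS is a relative of CD28 that appears after activation and binds ICOS ligand. CD69 is an early marker that appears within hours of stimulation and removes the receptor S1PR1 from the surface. CD44 binds hyaluronan and marks activated and memory cells. CD2 is an adhesion receptor that binds CD48 in mice, while CD5 and CD6 are related scavenger-receptor proteins that tune signalling through the antigen receptor, and CD6 binds CD166, the product of Alcam. Tfrc encodes the transferrin receptor, which carries iron into dividing cells. Ly6c1 encodes a GPI-anchored antigen of the Ly6 family found on subsets of T cells.

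In the RefSeq annotation of GRCm38.p6, Cd28 and Icos lie on chromosome 1 with Ctla4 as the 1 protein-coding gene between them. Cd5 and Cd6 are neighbours on chromosome 19, and Ly6c1 lies on chromosome 15 between Ly6a and Ly6c2. Cd69 lies on chromosome 6, Cd44 on 2, Cd2 on 3 and Tfrc on 16. Promoter sequences from RefSeq were found for 4 of the 9 members. The 250 bases before the start of Cd44 (chr2:102901666-102901915, minus strand) and of Tfrc (chr16:32608646-32608895, plus strand) are shown, 5′ to 3′ on the gene's strand in GRCm38.p6, because these members had the smallest p-values with PAM3CSK4 against Th17 cultures; capitals mark the CCAAT box.
Cd44: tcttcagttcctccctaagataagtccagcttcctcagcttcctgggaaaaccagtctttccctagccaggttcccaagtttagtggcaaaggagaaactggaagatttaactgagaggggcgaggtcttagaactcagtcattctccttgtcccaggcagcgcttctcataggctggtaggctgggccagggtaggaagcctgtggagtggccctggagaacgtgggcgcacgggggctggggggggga
Tfrc: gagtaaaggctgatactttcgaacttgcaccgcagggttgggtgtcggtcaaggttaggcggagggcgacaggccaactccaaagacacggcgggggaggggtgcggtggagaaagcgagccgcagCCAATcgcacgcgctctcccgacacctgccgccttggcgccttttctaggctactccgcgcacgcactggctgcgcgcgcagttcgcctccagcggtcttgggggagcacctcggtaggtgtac
Motifs were searched on both strands. The AP-1 motif TGANTCA is found in 6.75% of 32851 promoter windows of this length, the NF-kB core GGGANTTTC in 0.941%, the CRE motif TGACGTCA in 1.55%, the Sp1 motif GGGCGG in 32.7%, the CCAAT box CCAAT in 33.9% and the TATA box TATAAA in 12.4%. The Tfrc window held 1 CCAAT box and none of the others, and the Cd44 window held none of the 6. RefSeq lists another start of Tfrc further downstream, whose window (chr16:32608872-32609121) held 1 Sp1 motif and none of the others. A missing match says only that these letters are not in these windows.

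The reads of Ly6c1 need care because of a near copy. In the GENCODE transcripts, the longest open frames of Ly6c1 and Ly6c2 have 396 bases each and differ at 9 of them (97.7% identity), and the longest stretch they share has 188 bases. Bases 6 to 65 of these frames hold 6 of the differences and are shown with the differing bases in capitals.
Ly6c1: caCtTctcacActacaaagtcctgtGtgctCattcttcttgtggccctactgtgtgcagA
Ly6c2: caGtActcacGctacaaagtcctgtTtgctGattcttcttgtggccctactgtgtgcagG
A read that lies in the shared stretch can match both genes by its own bases. Only the open frames were compared, not the rest of the transcripts. The count table's entry for non-unique alignments came to 73.5 to 77.1% of its total, which is not a share of reads. Ly6c2 itself had 0 to 4 counts in each library. The level of Ly6c1 given below is therefore uncertain.

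Gene counts ran from 7012244 to 12533045 per library, and 11629 genes passed the filter on low counts. Of the 9 members, 8 exceeded the filter's cutoff of 1.02 CPM (counts relative to the library total, not scaled by TMM factors) in 8 of 8 libraries. Ly6c1 did so in 6, with 1 Th17 and 1 biglycan library below it. In a table the authors deposited, mitochondrial RNA took 14.3 and 14.7% of read pairs with PAM3CSK4, 15.9 and 16.1% with biglycan, 15.7 and 16.0% in Th17 cultures, and 11.98 and 9.87% in naive cells. The labelled cell type was checked with 7 markers of CD4 T cells (Cd3d, Cd3e, Cd3g, Cd4, Lck, Cd247 and Cd27), and 7 of 7 were detected in each group. In CPM with the library total scaled by TMM factors, their sum was 2466 to 2510 with PAM3CSK4 and 2588 to 2638 with biglycan. It was 2600 to 2682 in Th17 cultures and 4213 to 4564 in naive cells. Summed markers of B cells reached at most 3.73 CPM, of natural killer cells 0.928 and of myeloid cells 14.9 CPM. Those of CD8 T cells reached 21.5 CPM and those of stromal cells 9.03 CPM. The stromal maximum was that of biglycan replicate 7, while biglycan replicate 8 had 0.952 CPM. Red cell markers, 3 of 3, were at 0. The B cell, myeloid and CD8 T cell sums were highest in the naive libraries. There the CD8 T cell sum was mostly Cd8b1 (20.89 and 19.96 CPM), with Cd8a at 0.597 and 0.5053 CPM. The myeloid sum there was mostly Itgam (8.805 and 5.306 CPM) and Cd68 (4.626 and 5.937 CPM). Lyz2 was at 0.597 and 0 CPM in these libraries, Csf1r at 0.597 and 0.6316 CPM, and Cd14 at 0. The part of these sums in the differences from naive cells was not tested. The 1 gamma-delta T cell marker in the table, Sox13, reached at most 0.210 CPM.

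Per gene length, Cd28 was the highest of the 9 in each culture group and Cd2 in naive cells. On the authors' RPKM scale, which allows levels of different genes to be compared within a group, Cd28 averaged 330.3 ± 3.51 RPKM with PAM3CSK4, 327.7 ± 4.53 RPKM with biglycan, 336.4 ± 21.6 RPKM in Th17 cultures and 113.1 ± 6.49 RPKM in naive cells (SD, n = 2 each). In Th17 cultures this was above 99.5% of 14050 detected genes. With PAM3CSK4 the order below Cd28 was Cd2 at 225 RPKM, Cd5 at 194, Cd6 at 82.6, Icos at 70.9, Cd44 at 44.3, Cd69 at 34.8, Tfrc at 31.2 and Ly6c1 at 1.61 RPKM. With PAM3CSK4 the libraries of neighbours in this order did not overlap, except those of Cd69 and Tfrc.

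In biglycan cultures the order was Cd28, Cd2 at 192 RPKM, Cd5 at 180, Cd6 at 74.7, Icos at 63.5, Cd44 at 29.3, Tfrc at 25.8, Cd69 at 23.6 and Ly6c1 at 0.773 RPKM, with no overlap between neighbours. In Th17 cultures it was Cd28, Cd2 at 179 RPKM, Cd5 at 164, Cd6 at 68.1, Icos at 63.6, Cd44 at 28.2, Cd69 at 26.1, Tfrc at 21.1 and Ly6c1 at 0.957 RPKM. Here Cd6 and Icos overlapped between libraries, and so did Cd44 and Cd69. In naive cells the order was another: Cd2 at 245 RPKM, Cd69 at 178, Cd5 at 142, Cd28 at 113, Cd6 at 80.0, Icos at 19.3, Tfrc at 15.1, Cd44 at 7.38 and Ly6c1 at 4.15 RPKM, with no overlap between neighbours. Cd69 was thus the second of the 9 in naive cells and the seventh or eighth in each kind of culture.

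**Figure D1:**
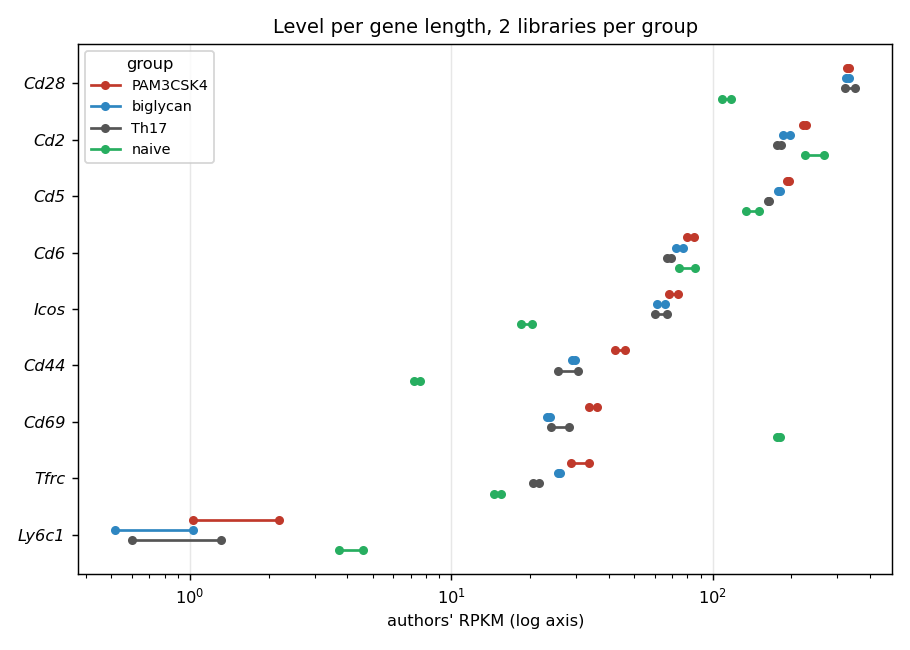
The authors' RPKM of each transcript (log axis) in 2 libraries per group, with the libraries of a group joined by a line. Cd69 lies near 178 RPKM in naive cells and under 37 RPKM in the 6 culture libraries, while Cd28, Icos and Cd44 lie higher in the cultures.

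Differences between groups were tested on the counts with edgeR's quasi-likelihood test over 11629 genes, with a Benjamini-Hochberg adjusted p under 0.05 as the threshold. Levels from here on are TMM-scaled CPM, and changes are log2 fold changes ± SE from that fit. In these bulk libraries, fewer cells with a transcript and less of it per cell cannot be told apart. Th17 cultures against naive cells, PAM3CSK4 against Th17 cultures and biglycan against Th17 cultures share the Th17 libraries, and PAM3CSK4 against biglycan shares its libraries with the ligand comparisons, so these comparisons are not independent of each other.

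The first comparison sets Th17 cultures, after 3 days of stimulation and polarization, against separate, untreated naive cells. In it, rose and fell mean higher and lower in the cultures. Of the 9 members, 3 rose (Cd44, Cd28 and Icos) and 4 fell (Cd69, Cd6, Cd2 and Ly6c1). The comparison called 72.2% of all tested genes (37.8% higher and 34.4% lower), so 7 of 9 is near the background. The members' median was -0.07, against 0.03 for all tested genes. Th17 and naive libraries were apart without overlap for 9 of 9 members, as for 84% of tested genes.

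Cd69 had 79.0 and 68.0 CPM in Th17 cultures, against 646 and 586 CPM in naive cells. Both culture libraries were far below both naive ones, an 8.37-fold lower level (-3.07 ± 0.09, adjusted p = 4.39e-17). S1pr1, the receptor for the exit signal from lymphoid organs that CD69 protein binds, had 766 and 842 CPM in Th17 cultures and 2284 and 2057 CPM in naive cells, and fell too (-1.43 ± 0.08, adjusted p = 2.29e-12). Cd69 did not stand alone among genes of the early response. Of 20 such genes, 18 fell and 2 rose, with a median of -2.24. Dusp1 (-4.72 ± 0.10) and Dusp5 (-6.27 ± 0.14), phosphatases induced by MAP kinase signalling, had the smallest p-values among those that fell. Egr2 (1.41 ± 0.12) and Egr3 (0.78 ± 0.18), transcription factors downstream of the antigen receptor, were the 2 that rose. The naive libraries were thus high in Cd69 and in most of these genes together, and the part of the early response in the Cd69 difference was not tested.

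Cd44 had 248 and 209 CPM in Th17 cultures, against 76.4 and 72.5 CPM in naive cells. It was 3.07-fold higher in the cultures (1.62 ± 0.09, adjusted p = 2.83e-12). Of 8 tested genes for CD44 partners and hyaluronan, 3 rose and 3 fell, with a median of -0.04. Hyal2, a hyaluronidase (2.04 ± 0.21), and Itgae, the CD103 integrin chain (4.90 ± 0.37), rose; Itgae had 9 counts over both naive libraries, and its change was 6.85 without naive replicate 2 and 4.19 without naive replicate 1. Ezr, the ezrin that links CD44 to actin (-0.89 ± 0.07), was among those that fell. Of 8 genes for the surface of naive T cells, 8 fell, with a median of -1.31; Il7r, the IL-7 receptor (-2.15 ± 0.08), and Il6ra, the IL-6 receptor (-1.73 ± 0.09), had the smallest p-values. Low Cd44 is part of the usual definition of the naive cell.

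The costimulatory receptors rose. Cd28 had 2734 and 2504 CPM in Th17 cultures and 1163 and 1009 CPM in naive cells, a 2.41-fold higher level (1.27 ± 0.09, adjusted p = 5.34e-11). Icos had 386 and 352 CPM in Th17 cultures and 151 and 132 CPM in naive cells, a 2.60-fold higher level (1.38 ± 0.09, adjusted p = 1.50e-11). Neither gene's libraries overlapped between the groups. Ctla4, the inhibitory receptor whose gene lies between them, had 805 and 751 CPM in Th17 cultures, against 110 and 128 CPM in naive cells, and rose (2.70 ± 0.09, adjusted p = 2.33e-16).

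Of 21 genes for the CD28 family and its signalling, 9 rose and 12 fell, with a median of -0.33. Pdcd1, the inhibitory receptor PD-1, rose by 3.90 ± 0.14 with Ctla4. Pik3cd, the leukocyte PI3-kinase subunit (-1.53 ± 0.09), was among those that fell. Of 9 tested ligands of the members, 4 rose and 3 fell, with a median of 0.92. Alcam, whose product binds CD6, rose (3.17 ± 0.21), and so did Lgals3, the lectin galectin-3 (6.53 ± 0.24, against 7 counts over both naive libraries). Icosl, the ICOS ligand, fell to 3 counts over both Th17 libraries, against 117 over both naive libraries (adjusted p = 2.71e-09). Cd80 had 28 and 23 counts in Th17 cultures and 0 counts in both naive libraries. Those 0 counts allow up to 0.428 and 0.374 CPM relative to the library total, not scaled by TMM factors. Cd86 had 17.6 and 10.3 CPM in Th17 cultures and 7.31 and 12.1 CPM in naive cells (0.51 ± 0.26, adjusted p = 0.0795), with overlapping libraries.

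**Figure D2:**
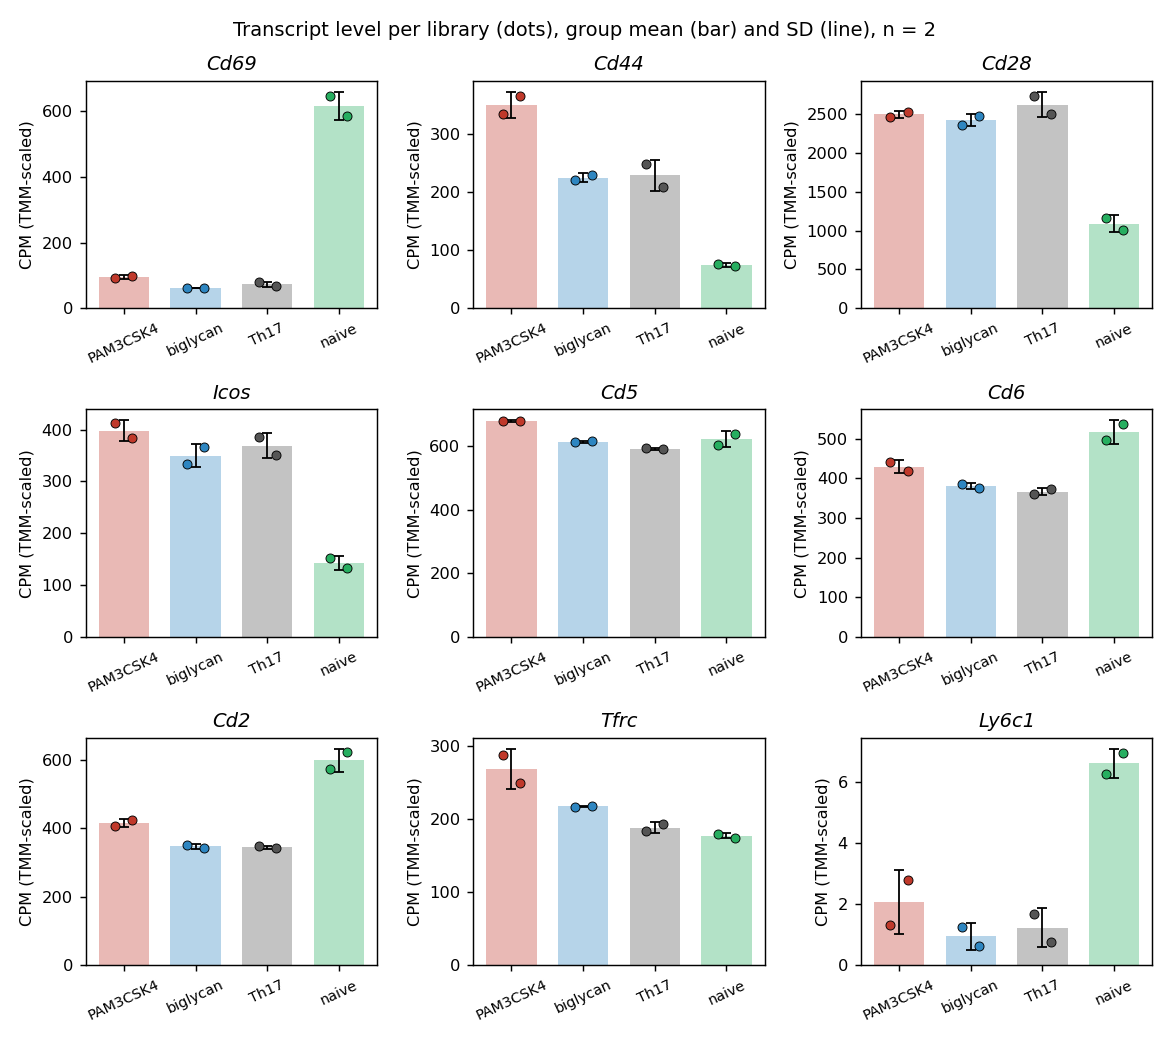
Level of each transcript in CPM, with a bar for the mean, a line for the SD and a dot for each of the 2 libraries per group; each panel has its own axis from 0. Cd69, Cd6, Cd2 and Ly6c1 stand highest in naive cells, and Cd44 stands highest in the 2 PAM3CSK4 libraries at 334 and 366 CPM.

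Of the 3 adhesion and tuning receptors, Cd2 and Cd6 fell while Cd5 did not pass the test. Cd2 had 348 and 342 CPM in Th17 cultures and 575 and 623 CPM in naive cells (-0.80 ± 0.08, adjusted p = 7.93e-09). Cd48, the mouse ligand of CD2, had 79.8 and 69.8 CPM in Th17 cultures and 178 and 181 CPM in naive cells, and fell (-1.26 ± 0.08, adjusted p = 2.70e-11). Cd6 had 360 and 372 CPM in Th17 cultures and 496 and 538 CPM in naive cells (-0.50 ± 0.08, adjusted p = 6.76e-06). Cd5, the neighbour of Cd6, had 593 and 590 CPM in Th17 cultures and 606 and 640 CPM in naive cells. Its change of -0.07 ± 0.07 (95% interval -0.23 to 0.08, adjusted p = 0.378) had the other sign on the authors' RPKM scale, at 0.20, where the median of all genes was shifted by 0.35. The changes of the other 8 members keep their sign on that scale in this comparison.

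Of 6 tested genes of the CD2 and SLAM family, 4 fell and 1 rose, with a median of -1.07. Ly9 (-2.06 ± 0.09) and Cd84 (-1.57 ± 0.08), self-binding receptors of lymphocytes, fell, while the call on Slamf1 (0.21 ± 0.09, adjusted p = 0.0458) was lost under 9 of 11 alternative settings, where its adjusted p reached 0.187. Of 12 inhibitors and adaptors of CD2, CD5 and CD6, 6 rose and 5 fell, with a median of 0.20. Sh2d1a, the SLAM adaptor SAP (0.83 ± 0.09), and Cd2bp2, named for binding to the CD2 tail (0.76 ± 0.08), rose. Ptpn6, the phosphatase SHP-1 (-1.02 ± 0.09), and Ubash3a, an inhibitor of antigen receptor signalling (-0.88 ± 0.08), fell.

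Tfrc had 183 and 193 CPM in Th17 cultures and 179 and 175 CPM in naive cells. Its libraries did not overlap, but the change of 0.09 ± 0.08 did not pass the test (95% interval -0.08 to 0.26, adjusted p = 0.339). On the authors' RPKM scale, where the median of all genes was shifted by 0.35, the change of Tfrc was 0.49. Over the same comparison 12 of 12 genes of dividing cells rose, with a median of 5.45; Mki67, a marker of cycling cells, rose by 5.74 ± 0.13 and Ccna2, cyclin A2, by 6.45 ± 0.15 (7.06 without naive replicate 2). Of 14 tested genes of iron supply, 6 rose and 7 fell, with a median of -0.26. Aco1 (0.79 ± 0.09) and Ireb2 (0.48 ± 0.11), the iron regulatory proteins that bind the Tfrc transcript, rose. Fth1, the ferritin heavy chain (-1.03 ± 0.08), and Slc25a37, a mitochondrial iron importer (-1.75 ± 0.16), fell.

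Ly6c1 had 20 and 8 counts in Th17 cultures and 42 and 55 counts in naive cells, or 1.69 and 0.773 CPM in Th17 cultures and 6.27 and 6.95 CPM in naive cells. It was 5.23-fold lower in the cultures (-2.39 ± 0.39, adjusted p = 1.80e-05), with no overlap. The change was -3.08 without Th17 replicate 1 and -1.97 without Th17 replicate 2. Of 5 tested genes of the Ly6 family, Ly6a rose, and Ly6e and Lynx1 fell, with a median of -0.77. Ly6a, the stem cell antigen Sca-1 and the other neighbour of Ly6c1, had 97.5 and 66.6 CPM in Th17 cultures and 39.4 and 48.6 CPM in naive cells (0.90 ± 0.14, adjusted p = 6.12e-06). Ly6e changed by -1.47 ± 0.09 and Lynx1 by -0.77 ± 0.25, and Lynx1 was no longer called without naive replicate 1 (adjusted p = 0.0621) or without Th17 replicate 1 (0.0787). Of 19 tested genes for later activation and costimulation, 7 rose and 11 fell, with a median of -0.54. Il2ra (6.74 ± 0.16) and Il2rb (4.51 ± 0.11), chains of the IL-2 receptor, rose most clearly, while Cd226 (-5.72 ± 0.20; -6.40 without Th17 replicate 2) and Cd96 (-2.82 ± 0.10), receptors for nectins and related proteins, fell.

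**Figure D3:**
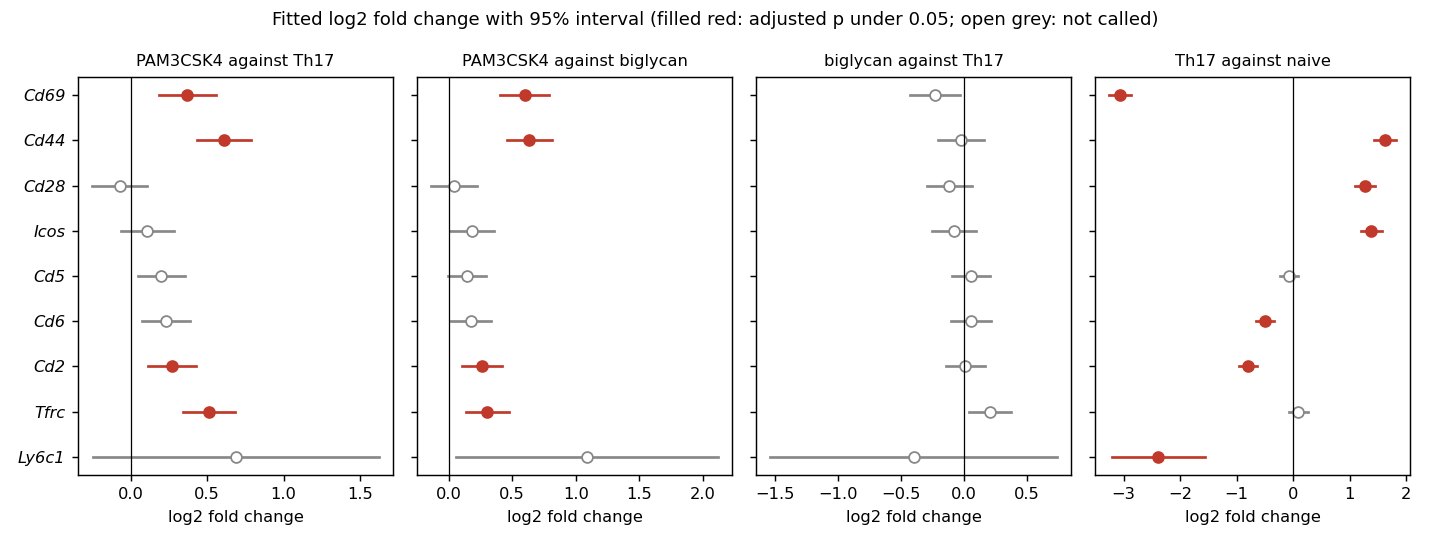
Fitted log2 fold change (point) with its 95% interval (line) for each transcript in 4 comparisons, each panel with its own axis; filled red points passed an adjusted p of 0.05. With PAM3CSK4, Cd69, Cd44, Cd2 and Tfrc lie above 0 in both comparisons, and no point is filled for biglycan against Th17. The open values for Cd44, Cd2 and Ly6c1 in that panel changed sign in at least 1 repeat without a library.

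PAM3CSK4 against Th17 cultures asks what TLR2 stimulation adds during polarization. Of the 9 members, 4 rose (Cd44, Tfrc, Cd69 and Cd2) and none fell, beside 9.99% of all tested genes called (5.21% higher and 4.78% lower). Because members and gene lists were chosen with earlier results of these data known, such shares are a description only. The members' median was 0.27, against -0.002 for all tested genes. For 6 of the 9 both PAM3CSK4 libraries were above both Th17 libraries, and for none were they below; 53% of tested genes had no overlap in either direction. At an unadjusted p under 0.05 there were 6 members, beside 2671 of all tested genes (23%).

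Cd44 had 334 and 366 CPM with PAM3CSK4, against 248 and 209 CPM in Th17 cultures. It was 1.53-fold higher (0.61 ± 0.08, adjusted p = 0.000103). Tfrc had 288 and 249 CPM with PAM3CSK4 and 183 and 193 CPM in Th17 cultures, a 1.43-fold higher level (0.51 ± 0.08, adjusted p = 0.000373). For both genes the call held under 10 of 10 alternative settings, with changes of 0.50 to 0.74 for Cd44 and 0.40 to 0.61 for Tfrc.

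Cd69 and Cd2 rose by less, with both PAM3CSK4 libraries above both Th17 libraries. Their calls were lost in repeats without 1 library, which leave 1 library in a group. Cd69 had 91.6 and 98.8 CPM with PAM3CSK4 and 79.0 and 68.0 CPM in Th17 cultures (0.37 ± 0.09, adjusted p = 0.0114). Without Th17 replicate 2 its change was 0.27 (adjusted p = 0.217), and without PAM3CSK4 replicate 4 it was 0.32 (adjusted p = 0.160). Cd2 had 408 and 425 CPM with PAM3CSK4 and 348 and 342 CPM in Th17 cultures (0.27 ± 0.08, adjusted p = 0.0244). Its adjusted p was 0.0707 or 0.172 when Th17 replicate 1 or 2 was left out, and 0.101 or 0.235 when PAM3CSK4 replicate 3 or 4 was left out, while its change stayed between 0.24 and 0.30. Without Th17 replicate 2, or without PAM3CSK4 replicate 4, 2 of the 9 members were called.

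The related receptors Cd5 and Cd6 had non-overlapping values that did not pass the test. Cd5 had 681 and 678 CPM with PAM3CSK4 and 593 and 590 CPM in Th17 cultures (0.20 ± 0.07, adjusted p = 0.0928). Cd6 had 442 and 418 CPM with PAM3CSK4 and 360 and 372 CPM in Th17 cultures (0.23 ± 0.08, adjusted p = 0.0568). When only the libraries of these 2 groups were fitted, Cd5 reached an adjusted p of 0.0494 and Cd6 of 0.0259. Cd6 also passed in DESeq2 (adjusted p = 0.0453) and without the filter on low counts (0.0465).

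The costimulatory receptors showed no call. Cd28 had 2460 and 2524 CPM with PAM3CSK4 and 2734 and 2504 CPM in Th17 cultures (-0.07 ± 0.09, adjusted p = 0.693), and the 95% interval of its change was -0.25 to 0.11. Icos had 412 and 383 CPM with PAM3CSK4 and 386 and 352 CPM in Th17 cultures (0.11 ± 0.08, adjusted p = 0.498), with an interval of -0.07 to 0.28. Both genes overlapped between the groups, and neither interval reaches the fitted change of Cd44. Ly6c1 had 17 and 31 counts with PAM3CSK4 and 20 and 8 counts in Th17 cultures (0.69 ± 0.45, 95% interval -0.25 to 1.62, adjusted p = 0.401).

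Among the genes linked to the members, Cd86 rose with PAM3CSK4. This ligand of CD28 had 31.5 and 32.4 CPM with PAM3CSK4, against 17.6 and 10.3 CPM in Th17 cultures (1.18 ± 0.21, adjusted p = 0.000895; 0.0549 in DESeq2). Spp1, the CD44 ligand osteopontin, fell (-0.82 ± 0.22), and these were the 2 called of 9 tested ligands, whose median was 0.18. Of 21 genes of CD28 signalling, 2 fell, among them Prkcq, the kinase PKC-theta (-0.28 ± 0.08), and none rose; the median was 0.04. Of 12 inhibitors and adaptors, 2 fell, Sh2d1a (-0.31 ± 0.08) and Sh2d2a, the adaptor TSAd (-0.33 ± 0.08), with a median of 0.009. None of the 6 tested genes of the CD2 and SLAM family and none of the 8 for CD44 partners and hyaluronan passed edgeR's test. S1pr1 (-0.34 ± 0.08) and Cd27, a TNF receptor family member (-0.40 ± 0.10), were the 2 of 8 naive surface genes that fell, with a median of -0.02. Prkcq, Spp1, Sh2d1a, Sh2d2a, S1pr1 and Cd27 were each no longer called without Th17 replicate 2 (adjusted p of 0.109 to 0.369), and each also lost its call without PAM3CSK4 replicate 4 (0.0534 to 0.233).

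With Tfrc, 2 of 14 genes of iron supply rose, Slc39a14, the metal transporter ZIP14 (0.85 ± 0.10, adjusted p = 2.84e-05), and Fth1 (0.29 ± 0.08, adjusted p = 0.0239), with a list median of 0.04. With Ly6c1 uncalled, 2 of 5 Ly6 genes rose, with a median of 0.27: Ly6a had 132 and 134 CPM with PAM3CSK4 and 97.5 and 66.6 CPM in Th17 cultures (0.69 ± 0.12, adjusted p = 0.000870), and Ly6e changed by 0.33 ± 0.09 (adjusted p = 0.0215). Fth1 was no longer called without Th17 replicate 2 (adjusted p = 0.240) or PAM3CSK4 replicate 4 (0.302), and Ly6e without Th17 replicate 2 (0.320) or PAM3CSK4 replicate 3 (0.298). Of 20 genes of the early response, 8 rose and none fell, with a median of 0.26; Jun rose by 0.78 ± 0.11 and Ier5 by 0.64 ± 0.10. Of 12 genes of dividing cells 1 fell, Ccna2 (-0.29 ± 0.09, adjusted p = 0.0345), and the median was -0.23; leaving out Th17 replicate 1 or 2, or PAM3CSK4 replicate 3 or 4, ended this call (adjusted p of 0.0686 to 0.320). Of 19 genes for later activation and costimulation, 5 rose and 2 fell, with a median of 0.23. Il2ra (0.80 ± 0.10) and the tetraspanin Cd82 (0.64 ± 0.11) rose, and Lag3, an inhibitory receptor (-0.57 ± 0.10), fell. The part of the early response and of cell division in the members' changes was not tested.

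**Figure D4:**
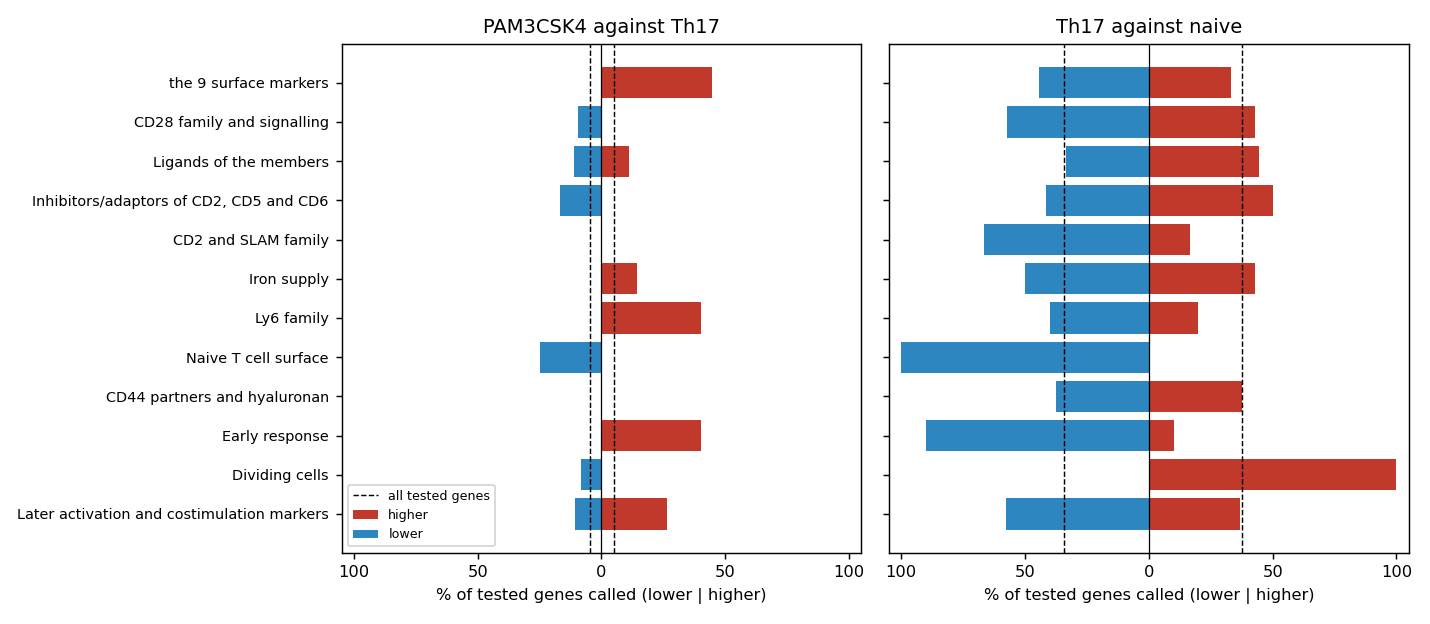
Share of the tested genes of each list that was called higher (right) or lower (left) with PAM3CSK4 against Th17 cultures and in Th17 cultures against naive cells; dashed lines mark the shares among all tested genes, 5.21% higher and 4.78% lower at left and 37.8% higher and 34.4% lower at right. With PAM3CSK4, 4 of 9 surface markers and 8 of 20 early-response genes were called higher.

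Biglycan against Th17 cultures asks the same of an endogenous ligand. None of the 9 members was called, beside 0% of all tested genes in edgeR and 0 genes in DESeq2. At an unadjusted p under 0.05 there were 506 genes (4.35%) and 2 members, Cd69 and Tfrc. The smallest adjusted p of any gene was 0.0827. The members' median change was -0.02, against 7.56e-05 for all tested genes. For 5 of 9 members the libraries did not overlap, 3 higher (Cd5, Cd6 and Tfrc) and 2 lower (Cd69 and Cd28) with biglycan, beside 34.2% of tested genes.

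Tfrc had 217 and 218 CPM with biglycan and 183 and 193 CPM in Th17 cultures (0.21 ± 0.08, 95% interval 0.04 to 0.38, adjusted p = 1). Cd69 had 63.1 and 62.4 CPM with biglycan and 79.0 and 68.0 CPM in Th17 cultures (-0.23 ± 0.09, interval -0.43 to -0.03, adjusted p = 1). Both genes had biglycan libraries beyond the Th17 ones, without passing the adjusted test. Cd44 had 220 and 230 CPM with biglycan and 248 and 209 CPM in Th17 cultures (-0.02 ± 0.09, interval -0.20 to 0.16), a value whose sign turned on the RPKM scale (0.06). Cd2 had 353 and 342 CPM with biglycan and 348 and 342 CPM in Th17 cultures (0.01 ± 0.08, interval -0.15 to 0.17). For Cd44 and Cd2 the groups overlapped.

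Cd28 had 2361 and 2472 CPM with biglycan and 2734 and 2504 CPM in Th17 cultures (-0.12 ± 0.09, interval -0.30 to 0.06). Icos had 334 and 366 CPM with biglycan and 386 and 352 CPM in Th17 cultures (-0.08 ± 0.08, interval -0.25 to 0.10). Cd5 had 613 and 616 CPM with biglycan and 593 and 590 CPM in Th17 cultures (0.05 ± 0.07, interval -0.10 to 0.21). Both biglycan libraries were thus lower for Cd28 and higher for Cd5, and overlapped with Th17 cultures for Icos.

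Cd6 had 387 and 375 CPM with biglycan and 360 and 372 CPM in Th17 cultures (0.06 ± 0.08, interval -0.10 to 0.22). Ly6c1 had 12 and 6 counts with biglycan and 20 and 8 counts in Th17 cultures, and its interval ran from -1.54 to 0.74. None of the genes in the lists beside the members was called in edgeR; Cd86, for example, had 12.8 and 20.3 CPM with biglycan and 17.6 and 10.3 CPM in Th17 cultures (0.23 ± 0.23).

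PAM3CSK4 against biglycan tests directly whether the cultures with the 2 ligands differed. The 4 members that rose with PAM3CSK4 were called here too, and 0 of 9 were lower, beside 11.5% of all tested genes called (5.64% higher and 5.88% lower). The members' median was 0.26, against -0.0008 for all tested genes. For 8 of the 9, all but Cd28, both PAM3CSK4 libraries were above both biglycan libraries, beside 58.9% of tested genes without overlap. Because the PAM3CSK4 libraries are the same as before, this is not a second measurement of their level.

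Cd44, at 334 and 366 CPM with PAM3CSK4 and 220 and 230 CPM with biglycan, was 1.55-fold higher (0.64 ± 0.09, adjusted p = 7.42e-05). Cd69, at 91.6 and 98.8 CPM with PAM3CSK4 and 63.1 and 62.4 CPM with biglycan, was 1.52-fold higher (0.60 ± 0.09, adjusted p = 0.000286). Both calls held under 10 of 10 alternative settings. Tfrc, at 288 and 249 CPM with PAM3CSK4 and 217 and 218 CPM with biglycan, was 1.24-fold higher (0.31 ± 0.08, adjusted p = 0.0166). Without PAM3CSK4 replicate 3 its change was 0.19 (adjusted p = 0.296), and its adjusted p was 0.161 without biglycan replicate 7 and 0.114 without biglycan replicate 8. Cd2, at 408 and 425 CPM with PAM3CSK4 and 353 and 342 CPM with biglycan, was 1.20-fold higher (0.26 ± 0.08, adjusted p = 0.0283). Leaving out PAM3CSK4 replicate 3 or 4, or biglycan replicate 7 or 8, gave Cd2 adjusted p-values of 0.107 to 0.245. Without PAM3CSK4 replicate 3, biglycan replicate 7 or biglycan replicate 8, 2 of the 9 members were called.

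The other members did not pass. Icos, at 412 and 383 CPM with PAM3CSK4 and 334 and 366 CPM with biglycan, changed by a fitted 0.19 ± 0.08 (95% interval 0.01 to 0.36, adjusted p = 0.165). Cd6 had a fitted difference of 0.18 ± 0.08 (0.02 to 0.33, adjusted p = 0.149), Cd5 of 0.15 ± 0.07 (-0.007 to 0.30, adjusted p = 0.224) and Cd28 of 0.04 ± 0.09 (-0.14 to 0.22, adjusted p = 0.799). Ly6c1 had 17 and 31 counts with PAM3CSK4 and 12 and 6 counts with biglycan (1.09 ± 0.49, adjusted p = 0.170). With only these 4 libraries in the fit, Icos (adjusted p = 0.0347) and Cd6 (0.0322) were called.

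Beside the members, 11 of 12 genes of dividing cells were lower with PAM3CSK4 than with biglycan and none was higher, with a median of -0.41; Ccna2 changed by -0.50 ± 0.09 and Top2a, a topoisomerase of replicating cells, by -0.48 ± 0.09. Of 20 early-response genes, 9 were higher and none lower, with a median of 0.35, led by Jun (0.97 ± 0.11) and Ier5 (0.78 ± 0.10). Tfrc, a gene of proliferating cells, was higher in the group with the lower dividing-cell transcripts. Its call did not hold in every repeat without 1 library. The part of cell division in the members' differences was not tested. In iron supply Slc39a14 (0.97 ± 0.10) and Fth1 (0.27 ± 0.08) were the 2 of 14 called, both higher. Cd86 was the 1 of 9 ligands called (0.95 ± 0.21, adjusted p = 0.00460), and Ly6a the 1 of 5 Ly6 genes (0.79 ± 0.12, adjusted p = 0.000303). The Cd86 call held under 8 of 10 alternative settings, and its change was 0.65 without biglycan replicate 7.

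In the CD28 list Pik3r1 (0.31 ± 0.08) and Pik3ca (0.24 ± 0.08), PI3-kinase subunits, were higher with PAM3CSK4 than with biglycan. Prkcq (-0.29 ± 0.08) was among the 3 of 21 that were lower, and the list's median was 0.05. Sh2d1a (-0.45 ± 0.08) and Sh2d2a (-0.32 ± 0.08) were the 2 of 12 inhibitors and adaptors called. Of 8 naive surface genes, Cxcr4, a chemokine receptor, was higher (0.35 ± 0.09), and S1pr1 (-0.31 ± 0.08) and Cd27 (-0.41 ± 0.10) were lower. Of 19 later activation markers, 5 were higher, led by Il2ra (0.79 ± 0.10) and the amino acid transporter Slc7a5 (0.56 ± 0.10), and 1 was lower, Lag3 (-0.41 ± 0.10). None of the 6 tested CD2 and SLAM family genes, and none of the 8 for CD44 partners, passed edgeR's test. Of these list genes, Cd86, Prkcq, Pik3ca, Pik3r1, Sh2d2a, Fth1, Cxcr4, S1pr1, Cd27, Top2a and Lag3 lost their call when at least 1 library was left out. With all libraries kept, Pik3ca also lost it with RLE or upper-quartile scaling, a robust dispersion and DESeq2 (adjusted p of 0.0502 to 0.0620), and Fth1 with DESeq2 (0.0659).

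The members did not share 1 pattern over the 8 libraries. With each gene's log2 CPM centred, the Euclidean distance was smallest between Cd28 and Icos (0.310), next Cd2 and Cd6 (0.393), then Cd5 and Cd6 (0.513), and it was largest between Cd69 and Cd44 (5.92). Most of such a distance is the step between 2 naive and 6 culture libraries, so these values are a description with no test. Among 9574 other genes with at least 5 CPM on average, those nearest to Cd69 were Klf6, Csrnp1 and Iqsec1, at distances of 0.353 to 0.412. Nearest to Cd44 were Ecm1, Aqp9 and Lss (0.258 to 0.294), to Cd28 Crtc3, Tbl1xr1 and Sept2 (0.139 to 0.156), and to Icos Erc1, Slc6a6 and Nsdhl (0.163 to 0.210). Nearest to Cd5 were Tep1, Triobp and Prkcd (0.0813 to 0.103), to Cd6 Rpn2, Polrmt and Nfkbib (0.127 to 0.131), and to Cd2 Nat10, Cnpy3 and Emp3 (0.128 to 0.137). Nearest to Tfrc were Hdac7, Zfp64 and Ap5b1 (0.218 to 0.281), and to Ly6c1 Ier5, Gm11974 and Slc2a1, which at 0.958 to 1.08 were much farther off than the others. Together the 9 transcripts made up 0.521 and 0.513% of gene counts with PAM3CSK4 and 0.463 and 0.473% with biglycan. They made up 0.496 and 0.470% in Th17 cultures and 0.373% in both naive libraries. Cd28 weighs most in this sum, with a mean of 2619 CPM in Th17 cultures and 1086 CPM in naive cells. The sum therefore does not describe the other members.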

How the data were processed

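The deposited counts are whole-number raw counts per gene, and the authors' deposited RPKM values are scaled to gene length and reads per library. Per the submitters' processing notes, Bowtie2 and HTSeq were used with build mm9; no version, annotation or strand setting is stated there, and the library kit was stranded, per the labels' protocols. The percent of read pairs from mitochondrial RNA, in a deposited table of its own, was read to describe libraries only. The 5 summary lines, which name no gene, held 86.3 to 88.3% of the count table's total and were left out. The biglycan columns carry the numbers 5 and 6 and were linked by library number to the titles numbered 7 and 8.

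The fit was made with edgeR 4.0.16 under R 4.3.3: filterByExpr by group, TMM scaling, and 1 quasi-likelihood fit over 8 libraries with 4 residual degrees of freedom (prior 15.9; biological coefficient of variation 6.19%), with Benjamini-Hochberg adjustment over 11629 genes and a threshold of 0.05. DESeq2 1.42.0, other scalings, no filter, a robust dispersion, fits on 2 groups and leaving out each library were tried as alternatives. Exact permutation of 2 against 2 libraries cannot give a p below 0.333, so no such test was used. The procedure was tried on simulated data that had the same spread for all genes. The changes put in were larger than those called for the members with PAM3CSK4, so calls of that size were not examined. RPKM was used only to order genes within a group and as an added scale. The 2 libraries of each group differed by more than sampling noise (chi-square per degree of freedom 2.69 to 6.15). The floor for 0 counts is 3 counts and covers counting error only. In CPM relative to the library total, not scaled by TMM factors, 3 counts correspond to 0.239 to 0.428 per library. Intervals of changes are 95% intervals of the fit.

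The members and gene lists were chosen with earlier results of these data known. List genes named are, per comparison and direction, up to 2 called genes with the smallest p and at least 5 CPM in the higher group, besides S1pr1, Ctla4, Ly6c2, Ly6a, Cd48, Cd80 and Cd86; the 3 nearest patterns per member were taken by distance. A few list genes chosen in this way are counted but not reported by name. Promoters and gene order are from RefSeq (GRCm38.p6) and Ly6 transcripts from GENCODE. Those sequences are of another build than the counts, so no coordinates were joined to them.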

Additional observations from a re-analysis of the deposited data

How the results depend on the processing

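Th17 cultures against naive cells kept 99 of 99 member values in direction and side of the threshold over 11 alternatives each. The number of members called stayed at 7, and genes called ranged from 7748 (DESeq2) to 8625 (no filter). Each of these alternatives sets libraries level by the bulk of the genes. They cannot test that scaling where 72.2% of tested genes were called. The deposited RPKM scale is not among them. On it the median of all genes was shifted by 0.35, Tfrc changed by 0.49 and Cd6 by -0.23. Small changes against naive cells therefore depend on the scaling. The replicate numbers 1 and 2 shared by Th17 and naive libraries are not said to mark a pairing, and the correlation of the differences between numbers was 0.05; with the replicate block 8051 genes and 7 members were called. In the other comparisons no paired analysis was possible because the groups share no replicate number, apart from the block above.

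For PAM3CSK4 against Th17 cultures, 80 of the 90 member values kept their side, 6 fell below the threshold and 4 passed it. Leaving out 1 library gave 2 to 3 members and 361 to 938 genes called. For PAM3CSK4 against biglycan, 81 kept their side, 7 lost it and 2 gained it; leaving out 1 library gave 2 to 3 members and 360 to 776 genes, and fitting only the 2 groups compared gave 2231 genes against 1340, while DESeq2 gave 894. For biglycan against Th17 cultures no alternative called a member, 29 genes were called with no filter on low counts, and leaving out 1 library gave 1 to 6. There 5 uncalled values changed sign when 1 library was left out: Cd44 without Th17 replicate 1 or biglycan replicate 7 (range without 1 library -0.14 to 0.11), Cd2 without biglycan replicate 7 (-0.0072 to 0.0333), and Ly6c1 without Th17 replicate 1 or biglycan replicate 8 (-0.97 to 0.29). On the deposited RPKM scale, added after seeing the data, Cd5 in Th17 against naive cells (0.20) and Cd44 with biglycan against Th17 (0.0585) had the other sign. The cause of these changes was not tested. Of the list genes chosen by the naming rule, also repeated after seeing the data, none changed sign; 31 of 180 values lost their call with PAM3CSK4 against Th17, 43 of 200 against biglycan and 11 of 418 in Th17 against naive cells. Ly6c1 had 6 to 55 counts per library.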
